A study of Caenorhabditis elegans with 2 samples.

Results

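Many germline messenger RNAs of Caenorhabditis elegans are made in one cell and translated in another, or later. Proteins that bind the 3′ untranslated region (3′ UTR), which lies downstream of the stop codon, hold translation back or release it. Known regulators are the repressors FBF and GLD-1, the poly(A) polymerase GLD-2 and zinc finger proteins of the oocyte and early embryo, and some of them, such as GLD-1, are themselves encoded by messenger RNAs under such control. The 30 genes described here were chosen by name from this network: 4 signalling and cell cycle genes, 4 genes of sex determination, 7 genes of RNA regulators in the germline, 10 genes of the oocyte and early embryo, and 5 genes of the meiotic chromosome axis and synaptonemal complex. They are 30 of 19973 annotated protein-coding genes. The data hold no measure of translation, so the control of these genes by their 3′ UTRs is background here and not a result.

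The study sequenced cloned 3′ ends to list the forms of worm 3′ UTRs. Total RNA of wild-type N2 worms of mixed stages was copied into cDNA with an oligo-dT primer and amplified with 1 forward primer per transcript, and the cloned products of 6432 minipools were read by pyrosequencing. A second run, of 49152 barcoded products and 5952 further minipools, was not analysed here as a sample of its own. The sources used here do not state whether its reads also entered the analysed list, which is recorded for the first run. The analysed file lists 4818 genomic intervals of contigs, and with 1 list there is no treatment group, no replicate and no replicate error. The intervals measured 96 to 839 nt, with a median of 183 nt and quartiles of 136 and 262 nt. The file gives no read count, strand or gene, so the depth behind an interval is unknown and no level of a transcript can be read from it. Intervals in brackets after shares are exact Clopper-Pearson 95% intervals and cover counting error only. The sources used here do not state which genes had a forward primer, so a missing interval can mean that the gene was not targeted or that its product was not recovered.

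A gene counted as having an interval if 10 nt or more of its stop codon and 3′ UTR were covered, or if the interval began no more than 60 nt upstream of the last base of the stop codon. Starts given below are distances from that last base. The file's numbering was first moved by a local shift onto the annotation, assembly WBcel235. By this rule 12 of the 30 genes had an interval (40%, 22.7 to 59.4), against 21.2% of all protein-coding genes. In 3 of the 12, glp-1, pie-1 and syp-3, the interval began at the stop codon of a gene on the opposite strand. The other 9 had an interval that was given to them alone (30%, 14.7 to 49.4, against 18% of all genes), and in 6 of these it began at the stop codon (20%, 7.71 to 38.6, against 15.3%). The bounds of the last 2 shares include the values over all genes. With genes picked by name none of these shares is a test. The base is 19973 genes, of which 16794 have an annotated 3′ UTR, whereas all 30 genes have one. In only 1 of the 30 is it below 100 nt. Across length bins from 100 nt, 25.9 to 31.1% of genes had an interval of their own. In the same bins 20.4 to 26.7% had one that began at the stop codon. Beside these bins the 30% and 20% show no excess. The 6 genes with an interval that began at the stop codon were fbf-1, puf-8, gld-2, spn-4, lip-1 and cep-1. The remaining 18 genes had none, and for 15 of them no interval lay within 1000 nt of the outermost annotated transcript end. The matching share over all genes without an interval was not computed, so this count is not a trait of the 18.

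**Figure D1:**
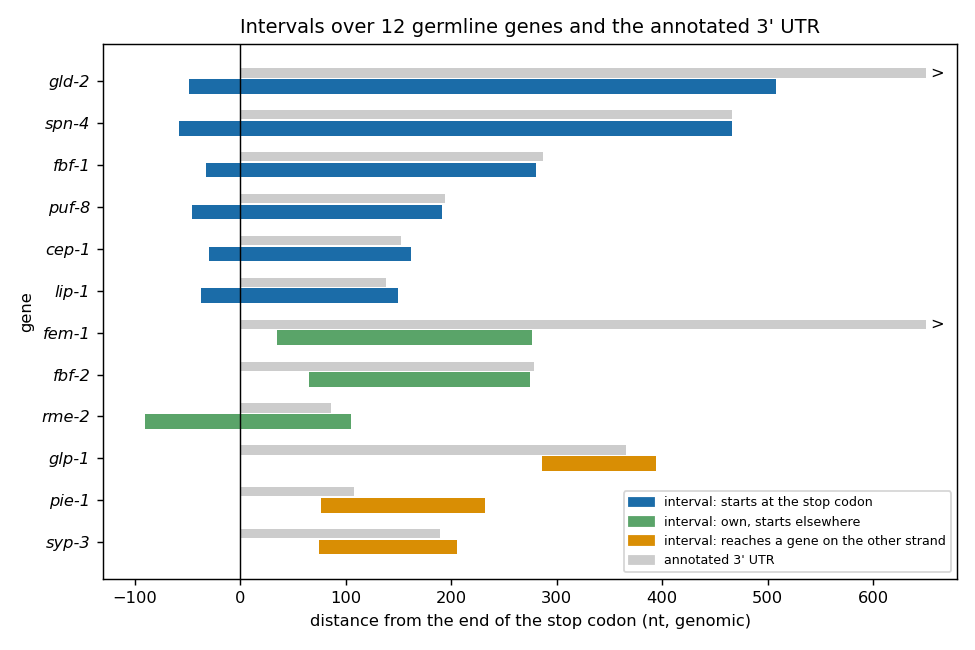
Intervals of the 12 genes (coloured bars) and the annotated 3′ UTR of the model with the nearest end (grey bars), by genomic distance in nt from the end of the stop codon. The 6 blue intervals begin at the stop codon, those of fem-1, fbf-2 and rme-2 begin elsewhere, and those of glp-1, pie-1 and syp-3 lie over the far part of the 3′ UTR and into the neighbouring gene. The arrow heads mark annotated 3′ UTRs that run past the axis, and that of fem-1 includes introns.

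Of the 7 RNA regulators of the germline, 4 had an interval of their own, fbf-1, fbf-2, puf-8 and gld-2, beside 18% of all genes. fbf-1 and fbf-2 encode the nearly identical PUF proteins that repress gld-1, fem-3 and other messenger RNAs in the stem cell region. The fbf-1 interval (chromosome II, 6078223 to 6078534 in the file's own numbering, as are all interval positions here) measured 312 nt. It began 32 nt upstream and ended 279 nt downstream of the stop codon end, 8 nt short of the annotated end. It covered 97.2% of the annotated 3′ UTR of 287 nt. The fbf-2 interval (II, 6088820 to 6089029) measured 210 nt and ended 274 nt after the stop codon, 5 nt short of its annotated end. It differed from that of its paralog at the other edge, beginning 65 nt after the stop codon, so that it held no coding sequence and 75.3% of the annotated 3′ UTR of 279 nt. The sources used here do not say where reads matching both copies would be placed. The local shift was also least certain here. Over 4 ways of finding it, the fbf-1 edge lay between 25 nt short of the annotated end and 0 nt from it, and the fbf-2 edge between 22 nt short and 3 nt past.

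puf-8, another PUF gene, acts in the balance of mitosis, meiosis and sperm fate. Its interval (II, 7296050 to 7296286) measured 237 nt, began 46 nt upstream and ended 190 nt downstream. That was 4 nt short of the end of its 3′ UTR of 194 nt, and 3 to 10 nt short over the 4 shifts. gld-2 encodes the catalytic subunit of a cytoplasmic poly(A) polymerase that lengthens poly(A) tails and activates translation. Its interval (I, 6385036 to 6385592) was the longest of the 12, at 557 nt, and only 25 of the 4818 intervals were longer. It ended 507 nt after the stop codon. Of the 6 annotated gld-2 models, 2 stop at the stop codon and the others have 3′ UTRs of 1103 to 1110 nt, so the end lay 596 nt upstream of the nearest annotated 3′ UTR end and covered 46% of that 3′ UTR. The intervals of the 5 others that began at a stop codon ended within 20 nt of an annotated 3′ UTR end at the main shift.

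The other 3 of these RNA regulators had no 3′ interval. gld-1 encodes a STAR family repressor whose own messenger RNA is held back by FBF. Its annotated 3′ UTR of 812 nt is the longest among the 18 genes without an interval, and the nearest interval began 3026 nt past its end, at T23G11.1. nos-2 and nos-3 encode Nanos proteins, partners of PUF proteins, with annotated 3′ UTRs of 406 and up to 597 nt. nos-3 (II, 9746316 to 9750462 in WBcel235) held an interval that met the rule for no gene, the only such interval inside one of the 30 genes. This interval (II, 9749288 to 9749392) measured 105 nt, all of it coding, and ended 389 nt before the nearest annotated stop codon. In the whole file 995 of 4818 intervals (20.7%, 19.5 to 21.8) were likewise at no annotated 3′ end.

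Among the signalling and cell cycle genes, lip-1 and cep-1 had an interval of their own. lip-1 encodes a phosphatase that switches off MAP kinase and is an FBF target. The annotation gives it 2 stop codons, with 3′ UTRs of 138 and 859 nt. The interval (IV, 6844773 to 6844959) measured 187 nt, began 37 nt upstream of the first stop codon's end and ended 149 nt downstream, 11 nt past the end of the shorter model. It therefore lay at the upstream of the annotated forms, and no interval lay at the downstream one. cep-1 encodes the worm relative of the tumour suppressor p53, whose translation GLD-1 represses. Its interval (I, 8328670 to 8328861) measured 192 nt and ran from 30 nt upstream to 161 nt downstream. The 5 annotated models have 3′ UTRs of 145 to 152 nt, and the edge lay 9 nt past the longest. cye-1, the cyclin E gene and also a GLD-1 target, had an annotated 3′ UTR of up to 517 nt and no interval closer than 12905 nt to its end.

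glp-1 encodes the Notch receptor that keeps germline stem cells dividing, and its maternal messenger RNA is translated only in anterior cells of the embryo. The interval over it (III, 9099534 to 9099641) measured 108 nt and began 286 nt after the glp-1 stop codon. At the main shift its other edge lay 27 nt past the annotated glp-1 end. This edge was also 31 nt upstream of the stop codon end of ZK507.1, which ends towards glp-1. Of the 366 nt of the glp-1 3′ UTR the interval covered the last 81. The main shift, 84 nt, was the lowest of those found here, and the highest was 105 nt. Over this range the edge lay 27 to 48 nt past the glp-1 end, and the start moved with it. At each other shift the edge therefore lay more than 31 nt upstream of the ZK507.1 stop codon end, and less than 81 nt was covered. Over all genes, intervals given by the stop codon began a median of 31 nt upstream, with quartiles of 25 and 38 nt.

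pie-1 and syp-3 repeated this layout. pie-1 encodes a zinc finger protein that keeps transcription off in the germline blastomeres of the embryo. The interval over its end (III, 12429047 to 12429201) measured 155 nt and covered only the last 32 nt of its 3′ UTR of 108 nt. It ran 123 nt past the annotated pie-1 end and began 23 nt upstream of the stop codon end of snr-6 on the opposite strand, ending 8 nt past the annotated snr-6 end. syp-3 encodes a central component of the synaptonemal complex, which holds homologous chromosomes together in meiosis. The interval (I, 8663022 to 8663152) measured 131 nt, covered 115 nt of the syp-3 3′ UTR and began 30 nt upstream of the stop codon end of mrt-1, which faces it. The matching edge lay farther out than at snr-6 in both other cases. At the main shift it lay 54 nt past the annotated end of mrt-1 and 63 nt past that of ZK507.1. The annotated ends of the facing genes overlap by 17 nt at glp-1, 23 nt at pie-1 and 60 nt at syp-3. By the rule used here these 3 intervals went to the facing genes, whose stop codons lay at the edge. The file has no strand, so this assignment rests on positions alone and was not tested. Of the genes that met the rule in the whole file, 630 of 4229 (14.9%, 13.8 to 16.0) likewise had no interval of their own.

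Such facing ends were common among the 30 genes. In 13 (43.3%, 25.5 to 62.6) a transcript end of the opposite strand lay within 100 nt of the outermost annotated end, against 3538 of 16794 genes with an annotated 3′ UTR (21.1%, 20.5 to 21.7). For mex-5 and him-3 the neighbour's interval stopped just short of them. The interval of W02A2.8 (IV, 13356079 to 13356192) lay 17 nt past the annotated end of mex-5, or 8 nt past it at the nearest over the 4 shifts. That of prkl-1 (IV, 6978758 to 6979060) lay 9 nt past the end of him-3. The genes nearest to the limits of the rule were thus him-3, outside by 9 nt, and pie-1, inside with 32 nt of overlap, and among starts spn-4, inside at 58 nt upstream, and rme-2, outside at 90 nt.

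Of the 10 genes of the oocyte and early embryo, 2 had an interval of their own, spn-4 and rme-2, beside 18% of all genes. spn-4 encodes an RNA-binding protein that works with POS-1 and MEX-3 on maternal messenger RNAs. Its interval (V, 6783171 to 6783694) measured 524 nt, and 47 intervals of the file were longer. It began 58 nt upstream and ended 465 nt downstream, 1 nt short of the annotated end. It thus covered 99.8% of its 3′ UTR of 466 nt, and all 4 shifts placed the end within 2 nt of the annotated one. rme-2 encodes the yolk receptor of the oocyte. Its interval (IV, 5472968 to 5473162) measured 195 nt, began 90 nt upstream and covered the whole 3′ UTR, which at 86 nt is the shortest of the 30. Its end lay 18 nt past the annotated end, but only 4 nt past it with the shift taken from the 30 nearest intervals.

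The other 7 genes of this group besides pie-1 had no interval. They were oma-1 and oma-2, zinc finger genes needed for oocyte maturation, mex-5 and mex-6, a related pair that sets up the anterior of the zygote, mex-3, a KH domain gene, pos-1, a zinc finger gene of the posterior, and pal-1, the Caudal homeobox gene that MEX-3 represses. Their annotated 3′ UTRs run from 294 nt in oma-2 to 688 nt in mex-3, all above the upper quartile of 254 nt over all genes with an annotated 3′ UTR. mex-6 and pos-1 lay in wide gaps of the file, with the nearest interval 39631 nt and 42358 nt from their ends. By contrast the nearest interval to oma-1 lay 1516 nt away, at spr-2.

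No sex determination gene had an interval at its main 3′ end. tra-2 encodes the membrane receptor of female fate and carries the repeated elements through which GLD-1 represses it. fem-3 encodes a promoter of male fate that FBF represses, and fog-1 a CPEB-related regulator of sperm fate. Their annotated 3′ UTRs measure up to 235, 263 and 246 nt, lengths at which 26.8% of all genes (25 to 28.7, 594 of 2213 genes with 200 to 299 nt) had an interval of their own. fem-1, an ankyrin repeat gene of the same pathway, met the rule only through a second model. That model has an early stop codon and a 3′ UTR of 1927 nt in 8 pieces, whereas the other has a 3′ UTR of 262 nt. The interval (IV, 5537097 to 5537338) measured 242 nt, of which 178 nt were coding in the other model and the rest was intron. It began 35 nt after the early stop codon and ended 3985 nt (genomic) upstream of the annotated end, so it is not at the 3′ end of either model. Of 12 further sex determination genes, among them tra-1, fem-2 and her-1, 0 had an interval (upper limit 26.5%, against 21.2% of all genes). Together with the 4 described here, 0 of 16 had one that began at a stop codon (upper limit 20.6%, against 15.3% of all genes). Both upper limits lie above the share over all genes, but that base includes genes without an annotated 3′ UTR. In all 16 the longest annotated 3′ UTR exceeds 100 nt. Of all genes with 100 to 599 nt, 22.8 to 26.7% per length bin had an interval that began at the stop codon, and 20.4% from 600 nt. The limit of 20.6% lies below the former and just above the latter. With genes picked by name this is no test.

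The meiotic genes had the shortest annotated 3′ UTRs of the groups, with a median of 171 nt and a range of 168 to 229 nt. him-3, htp-1 and htp-2 encode HORMA domain proteins of the chromosome axis, and syp-2 and syp-3 encode synaptonemal complex proteins. None of the 5 had an interval of its own, beside 18% of all genes. htp-1 and htp-2, close copies on chromosome IV, have annotated 3′ UTRs of 170 and 171 nt. The nearest intervals lay 2836 nt upstream of the htp-1 end and 2669 nt upstream of the htp-2 end, at ZK616.5 and Y73B6BL.23.

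**Figure D2:**
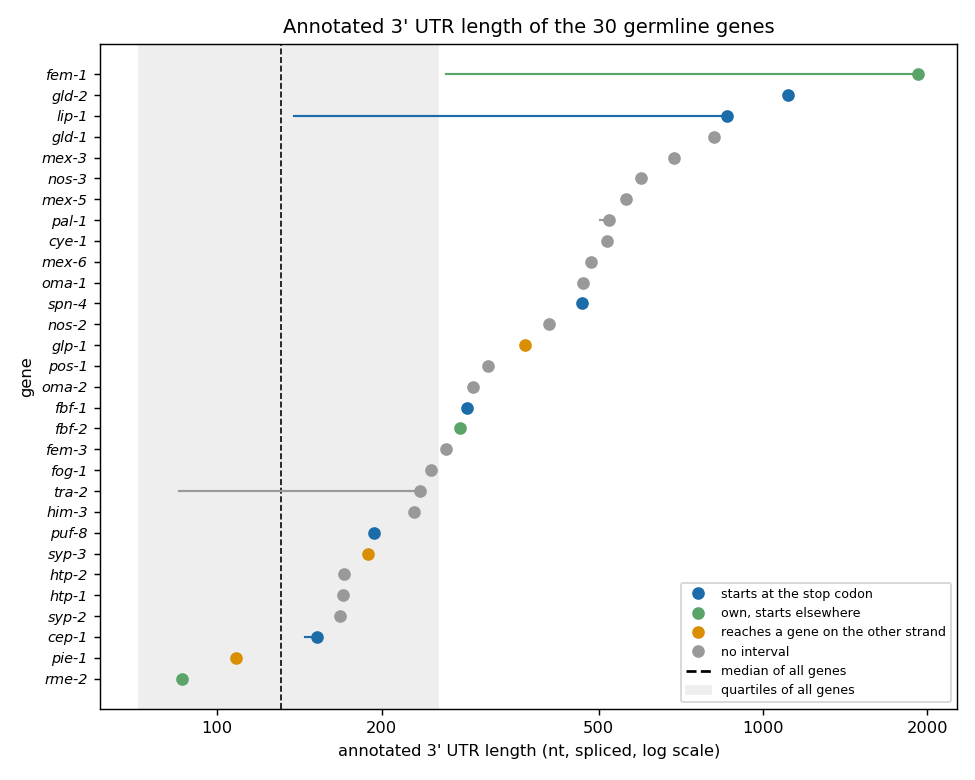
Annotated spliced 3′ UTR length of the 30 genes in nt (log axis), with a line from the shortest to the longest model and a point at the longest, coloured by the interval found. The dashed line is the median of 131 nt over all 16794 genes with an annotated 3′ UTR and the grey band spans their quartiles, 72 to 254 nt, and 28 of the 30 points lie to the right of the line.

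The annotated 3′ UTRs of the 30 genes were long as a group. The longest model of each had a median of 304 nt, with quartiles of 202.75 and 521.5 nt, against 131 nt over all genes, and 28 of 30 lay above that value. Genes without an interval had a median of 360 nt and a range of 168 to 812 nt, and the 12 with one had a median of 283 nt and a range of 86 to 1927 nt, so the ranges overlapped widely. Over all genes the share with an interval of their own was lowest below 100 nt, at 10.8% (10.0 to 11.6), was 31.1% (28.4 to 33.9) at 400 to 599 nt, and was 26.3% (23.7 to 29.0) from 600 nt. In the bin of 400 to 599 nt, 1 of 8 of the germline genes had one, spn-4, and from 600 nt 3 of 5 had, gld-2, lip-1 and fem-1. For lip-1 and fem-1 the interval did not lie at the long form that put the gene in this bin. In 3 of the 30 (10%, 2.11 to 26.5), fem-1, gld-2 and lip-1, the longest annotated 3′ UTR exceeds 839 nt, the longest interval in the file. The same holds for 544 of the 16794 genes with an annotated 3′ UTR.

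After the stop codon, the 6 intervals that began there ran 149 nt in lip-1, 161 nt in cep-1, 190 nt in puf-8, 279 nt in fbf-1, 465 nt in spn-4 and 507 nt in gld-2. Their median was 234.5 nt, against 152 nt with quartiles of 106 and 232 nt over the 3046 genes with such an interval. The low values of the 6 lie near that median and the high ones above its upper quartile. With 6 genes picked by name this is a description and not a test.

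**Figure D3:**
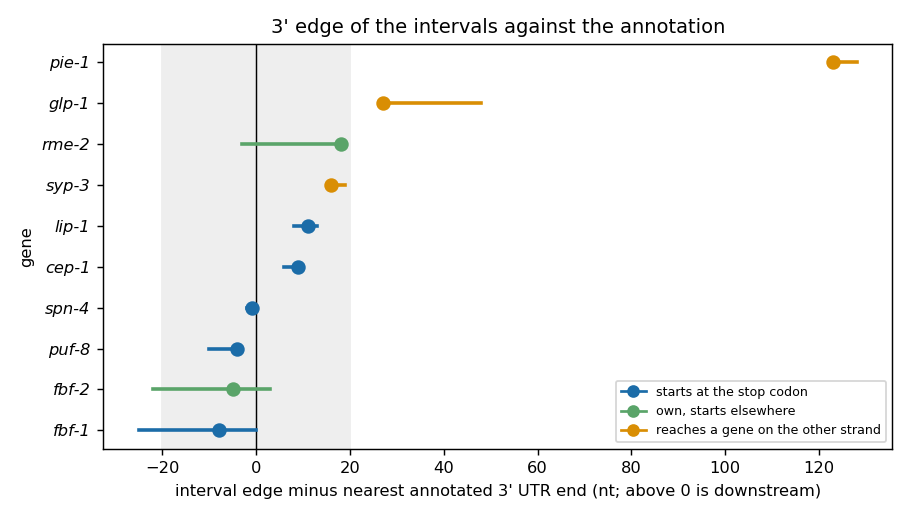
Distance in nt from the nearest annotated 3′ UTR end to the 3′ edge of the interval on the strand of the named gene, for 10 of the 12 genes. Points use the main local shift, lines span the lowest and highest value over 4 ways of finding the shift, and the grey band marks 20 nt either way. gld-2, at −596 nt, and fem-1, at −3985 nt, lie off the axis. The 7 other genes with an interval of their own lie in the band, between −8 nt in fbf-1 and 18 nt in rme-2.

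After the local shift most ends lay at annotated ones, here as over all genes. That shift was itself chosen by overlap with annotated 3′ UTRs, so part of this agreement is built in. Of the 9 genes with an interval of their own, 7 ended within 20 nt of an annotated transcript end (77.8%, 40 to 97.2), against 63.4% of all such genes. The 2 others were gld-2 and fem-1. The bounds include the share over all genes, and with 3 Mb windows the count was 5 of the 9. The sources used here do not state whether the annotation was built in part from these clones. In 3599 genes with an interval of their own the median difference was 0 nt with quartiles of −16 and 8 nt, and 23.4% ended more than 20 nt upstream and 13.2% more than 20 nt downstream. None of the 12 genes had more than 1 end, against 1.96% of all genes that met the rule. The intervals of the file do not overlap, so forms that share a start cannot be counted in it, even for lip-1, gld-2 and other genes whose annotated models differ.

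Gene pairs of close relatives were recovered together only for fbf-1 and fbf-2. Their annotated 3′ UTRs differ by 8 nt. Neither oma-1 nor oma-2 (467 and 294 nt), neither mex-5 nor mex-6 (561 and 484 nt), neither htp-1 nor htp-2, and neither nos-2 nor nos-3 had a 3′ interval.

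Further genes of the same processes were taken from 4 lists of names. The shares below stand beside 21.2% of all genes with an interval by the rule, and with lists picked by name they are no test. All genes again include those without an annotated 3′ UTR. Among 35 genes of germline RNA regulation, 12 had an interval (34.3%, 19.1 to 52.2). The longest stretch past the stop codon measured 447 nt in cpb-1, a CPEB gene of spermatogenesis, whose interval (III, 9324168 to 9324657) ended 172 nt upstream of the annotated end. The shortest, counted only within the interval that began at the stop codon, was 86 nt in puf-5, a PUF gene of the oocyte. It was the only gene of the lists with more than 1 interval. Its intervals (II, 8577275 to 8577418 and 8577430 to 8577661) lay 11 nt apart, and ended 285 and 42 nt upstream of the nearest annotated end. Of 27 meiotic genes, 11 had an interval (40.7%, 22.4 to 61.2), with 96 nt after the stop codon in syp-1, a synaptonemal complex gene, and 280 nt in the recombinase gene rad-51 at the ends of the range. Of 28 genes of the oocyte and early embryo, 13 had one (46.4%, 27.5 to 66.1), from 105 nt after the stop codon in the eggshell gene perm-2 to 262 nt in the cell cycle phosphatase gene cdc-25.1. An interval of their own was found for 34.3% (19.1 to 52.2), 37% (19.4 to 57.6) and 39.3% (21.5 to 59.4) of the genes in these lists, in the same order. The share was 18% over all genes and 25.9 to 31.1% across the length bins from 100 nt. The bounds of each list include the values of these bins. Over the 100 genes of the 4 lists together the median after the stop codon was 179 nt, in 25 genes, against 152 nt over all genes with such an interval.

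**Figure D4:**
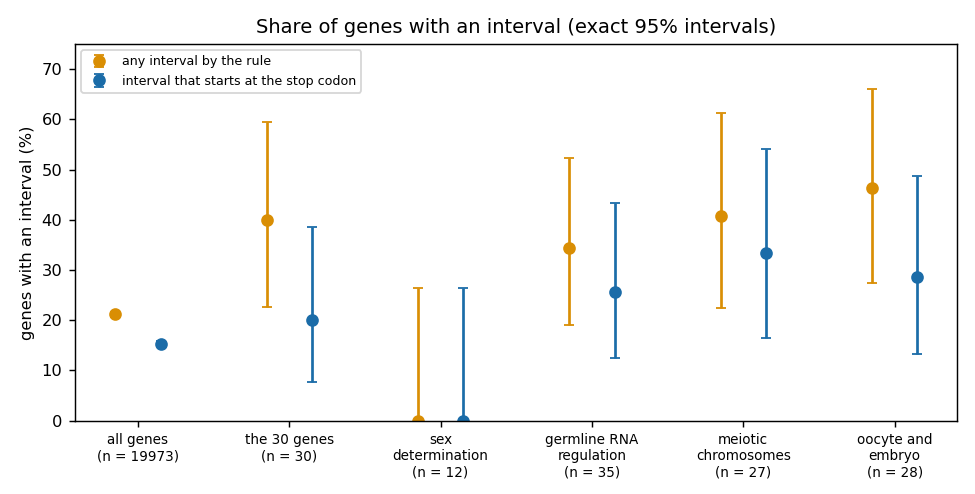
Share in percent of genes with any interval by the rule (orange) and with an interval that begins at the stop codon (blue), for all genes, the 30 genes and 4 further lists. Bars are exact 95% intervals. The 30 genes stand at 40% and 20%, all genes at 21.2% and 15.3%, and the sex determination list at 0 for both. All genes include those without an annotated 3′ UTR.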

How the data were processed

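The authors deposited 4818 intervals in a table of 6 columns without a header. The sources used here do not state the contig assembly, aligner, filters or build. The deposited score column holds 0 throughout and was not used. Gene models came from Ensembl release 115, assembly WBcel235. In each of 103 windows of 1 Mb (widened up to 3 Mb below 15 intervals), the intervals were moved by up to 6000 nt to the shift with the largest overlap with stop codons and 3′ UTRs of both strands. Best shifts ran from −17 to 123 nt, and 4602 nt past 20 Mb of chromosome V. A second shift, from stop codon distances on both strands, differed by a median of 3 nt and at most 20 nt. An interval over several genes went to the gene whose stop codon lay at the 5′ edge, if only 1 did. Ends at most 20 nt apart were joined. Of 103 symbols in 4 lists, 3 (oma-3, ntl-1 and rad-54) matched no protein-coding gene. The named genes are the 30, and from each list the longest and shortest sequence after the stop codon and genes with more than 1 end. Members, lists and limits were chosen with earlier results of these data known. The functions were tested on simulated intervals. Python 3.11.15, numpy 2.4.6, pandas 2.3.3 and scipy 1.17.1 were used. The planned motif searches and comparisons of protein identity were not run here.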

Additional observations from a re-analysis of the deposited data

How the results depend on the processing

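Of 37 recalculated values, 34 kept within 1.5 times the count, or within 20 nt of the median. This tally is no measure of robustness, since some values could hardly move. The number of genes with more than 1 end was 0 in every setting, and the median cannot respond to the overlap limits. A fall from 7 to 5 or from 12 to 9 also counted as kept. With intervals counted only where they began at the stop codon, 6 of the 30 genes had an interval in place of 12, because overlap alone no longer counts. Without a shift, 13 genes had one, mex-5 being added, and the median after the stop codon fell to 154 nt over 5 genes. With starts accepted up to 120 nt before the stop codon end the median was 190 nt, because rme-2 joined. With 3 Mb windows 5 genes in place of 7 ended within 20 nt of an annotated end, since both fbf genes left. Given to 1 gene only, a count chosen after seeing the data like the shift from the 30 nearest intervals, 9 genes had an interval. No paired analysis was possible because there is 1 list and the results come from no test. The unknown read depth and the shift, uncertain by up to 25 nt at the fbf genes, limit the precision of each end.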
